A study of Mus musculus with 16 samples.

Results

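Heat shock protein genes were followed in 16 RNA sequencing libraries of mouse muscle stem cells (MuSCs). The 10 genes were chosen by symbol from the 24411 genes of the deposited count table, with the counts of these libraries in view. They are Hspa1a, Hspa1b, Hspa8, Hsph1, Hsp90aa1, Hsp90ab1, Dnajb1, Hspb1, Hspd1 and Bag3. Because of that choice, their levels and their changes with injury are given as a description. MuSCs were sorted from hindlimb muscle of control mice, which the labels call wild type, and of TRF2 MuSC-cKO mice, with 4 biological replicates of each genotype in uninjured muscle and 4 of each at 3 days post-injury (3 DPI). TRF2 MuSC-cKO mice carry floxed TRF2 (gene Terf2, a telomere-binding protein) and a tamoxifen-inducible Cre recombinase expressed from Pax7, so deletion is limited to Pax7-expressing cells and their progeny. By the study's methods, mice were kept on a C57BL/6 background and received 7 tamoxifen injections from 8 to 10 weeks of age. The labels do not give the age of each mouse at sorting, and the study's legend on marker gene expression in MuSCs of both injury states describes mice 3 months old. Injury was an injection of 10 µl of notexin, a snake venom toxin that destroys myofibers. All muscles were digested with collagenase and dispase, and live cells were sorted as negative for CD45, CD31, CD11b and Sca1 and positive for α7-integrin and for VCAM or CD34.

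Heat shock proteins are molecular chaperones, which bind unfolded proteins, keep them from aggregating and help them to fold. HSP70 proteins work in a cycle with J-domain proteins, which deliver clients and trigger ATP hydrolysis, and with nucleotide exchange factors, which release the client. HSP90 takes over clients such as kinases and steroid receptors, small heat shock proteins hold unfolded proteins without ATP, and chaperonins fold proteins inside a chamber. Some of these genes are expressed in all cells, while others are strongly induced by the transcription factor HSF1 when proteins are damaged. In MuSCs, heat shock genes and immediate early genes are also known to be induced while muscle is digested and sorted.

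Library totals were 620506 to 1351130 estimated counts. Between 19996 and 21879 genes had a count in 15 libraries, and 15387 in replicate 3 of the 3 DPI libraries labelled TRF2 MuSC-cKO. Levels are given as counts per 1000000 counts of a library (CPM), scaled by the trimmed mean of M-values (TMM) over the 16 libraries, and changes as log2 fold changes from edgeR ± their standard error (SE). Each comparison was scaled over its own libraries, so a fold change can differ from the ratio of the CPM. Calls needed a fold change over 1.5 and an adjusted p-value under 0.02. As the check of the genotype, Terf2 was at 71.5, 94.5, 66.3 and 73.1 CPM in the uninjured control libraries and at 49.7, 46.8, 58.7 and 27.2 CPM in the uninjured TRF2 MuSC-cKO libraries. These ranges did not overlap in CPM but did as percent of all counts, and Terf2 was not called (log2 fold change -0.62 ± 0.27, edgeR adjusted p = 0.20). At 3 DPI, Terf2 was at 35.5, 48.6, 48.2 and 42.8 CPM in the control libraries and at 52.6, 21.9, 66.9 and 89.7 CPM in the libraries labelled TRF2 MuSC-cKO. There, 3 of the 4 libraries labelled TRF2 MuSC-cKO were above every control library, so the genotype at 3 DPI is given as labelled throughout. Markers of the sorted cell type were lower at 3 DPI, while those of macrophages and monocytes and of fibroadipogenic cells, which the sort should remove, were higher. The summed level of 8 MuSC markers, including Pax7, was 2598 to 4469 CPM in uninjured control, 1597 to 2289 CPM in uninjured TRF2 MuSC-cKO, 690.3 to 963 CPM in 3 DPI control and 337 to 536 CPM in 3 DPI libraries labelled TRF2 MuSC-cKO. The summed level of 8 macrophage and monocyte markers was 62.4 to 106, 105 to 170.3, 4231 to 5353 and 1734 to 5015 CPM in the same order. Of these, Lyz2 had a mean of 5.80 CPM in uninjured control and 2527 CPM in 3 DPI control libraries. The summed level of 5 fibroadipogenic markers was 341 to 619, 420 to 846, 1400 to 2096 and 1099 to 2295 CPM. Their part in the results below was not tested, and in sorted bulk cells a smaller share of cells and less RNA per cell cannot be told apart.

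Hspa1a and Hspa1b encode the inducible HSP70 and are single-exon neighbours on chromosome 17 (GRCm38, GENCODE M21). Hspa1a lies at 17:34969190-34972156 and Hspa1b at 17:34956436-34959238, both on the minus strand. Their coding sequences were identical at 1918 of 1929 aligned positions (99.43%), and the 250 bases before their starts at 247 positions. Hspa1a took 47.1 to 59.6% of the counts of the pair in a library. Because reads of such copies can be split either way, the pair is also given as a sum. The 160 bases before the start of Hspa1a, Hspa1b and the small heat shock gene Hspb1 are shown because these 3 genes fell far with injury and are known HSF1 targets. They are RefSeq sequences on GRCm38.p6, read 5′ to 3′ on the strand of the gene, from chr17:34972157-34972316, chr17:34959239-34959398 and chr5:135887759-135887918. Capitals mark matches to 2 units of the heat shock element, the sequence that HSF1 binds.
Hspa1a: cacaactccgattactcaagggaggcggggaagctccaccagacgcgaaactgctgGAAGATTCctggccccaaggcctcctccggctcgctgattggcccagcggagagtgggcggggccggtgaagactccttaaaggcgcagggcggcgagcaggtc
Hspa1b: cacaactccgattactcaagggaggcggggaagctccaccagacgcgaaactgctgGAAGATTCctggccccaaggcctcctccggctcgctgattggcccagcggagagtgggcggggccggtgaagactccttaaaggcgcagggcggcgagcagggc
Hspb1: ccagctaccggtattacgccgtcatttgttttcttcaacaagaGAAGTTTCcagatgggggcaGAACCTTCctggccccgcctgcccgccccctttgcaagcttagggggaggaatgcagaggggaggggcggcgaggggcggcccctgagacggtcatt
A shorter site is shown for Hspd1, the mitochondrial chaperonin HSP60, because in control MuSCs its level did not fall with injury, unlike those of the others. Hspd1 (1:55077835-55088243, minus strand) and Hspe1, its co-chaperonin, run in opposite directions and share this sequence, printed on the strand of Hspe1 (chr1:55088053-55088082). The sequence lies before the RefSeq start of each gene, although their GENCODE extents overlap. The site of Hsph1 (chr5:149636280-149636304, minus strand) lies just after a start. Both are within annotated exons. Capitals mark 3 or more units in a row.
Hspe1 and Hspd1: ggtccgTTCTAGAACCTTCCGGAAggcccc
Hsph1: cagaTTCTGGAAAGTTCtcctcagt
The motif was searched on both strands of RefSeq windows from 250 bases before to 50 after a start, as 3 units (GAANNTTCNNGAA or TTCNNGAANNTTC) and as 2 units (GAANNTTC or TTCNNGAA), and overlapping matches were kept. Windows were found for 7 of the 10 genes, and none for Hspa8, Hsp90aa1 and Hsp90ab1. The 3-unit form was in windows of Hspd1 and Hsph1, against 0.603% of all 32851 windows. The 2-unit form was also in Hspa1a and Hspa1b, in both at -104 to -97 from the start, in Hspb1 at -117 and -97, and in Bag3 downstream of the start at 43. It was in 15.1% of all windows, so a match is common. Dnajb1 had neither form in its window. A match is a description of the letters, and no binding was measured here.

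In uninjured MuSCs, about 5 in 100 counts came from these 10 genes, and at 3 DPI fewer than 1 in 100. Their share of all counts was 5.02, 4.97, 4.77 and 4.58% in the 4 uninjured control libraries (4.84% ± 0.20, SD, n = 4) and 4.92, 5.88, 4.96 and 4.52% in the uninjured TRF2 MuSC-cKO libraries (5.07% ± 0.58). At 3 DPI it was 0.725, 0.608, 0.659 and 0.680% in control (0.668% ± 0.049) and 0.532, 0.604, 0.317 and 0.513% in libraries labelled TRF2 MuSC-cKO (0.491% ± 0.123). The injury states did not overlap. At 3 DPI the highest library labelled TRF2 MuSC-cKO (0.604%) was just under the lowest control library (0.608%), and with the rescaled table these groups overlapped. Most of this share was the HSP70 pair. Hspa1a and Hspa1b together held 3.87% ± 0.10 of all counts in uninjured control and 4.25% ± 0.47 in uninjured TRF2 MuSC-cKO MuSCs, where they ranked among the 4 genes with the most counts. At 3 DPI they held 0.292% ± 0.066 and 0.240% ± 0.076. The other 8 genes held 0.964% ± 0.166, 0.821% ± 0.118, 0.376% ± 0.051 and 0.252% ± 0.062 in the same order of groups. The pair thus made up 80.1% ± 2.8 of the counts of the 10 genes in uninjured control libraries and 43.6% ± 7.9 at 3 DPI.

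**Figure D1:**
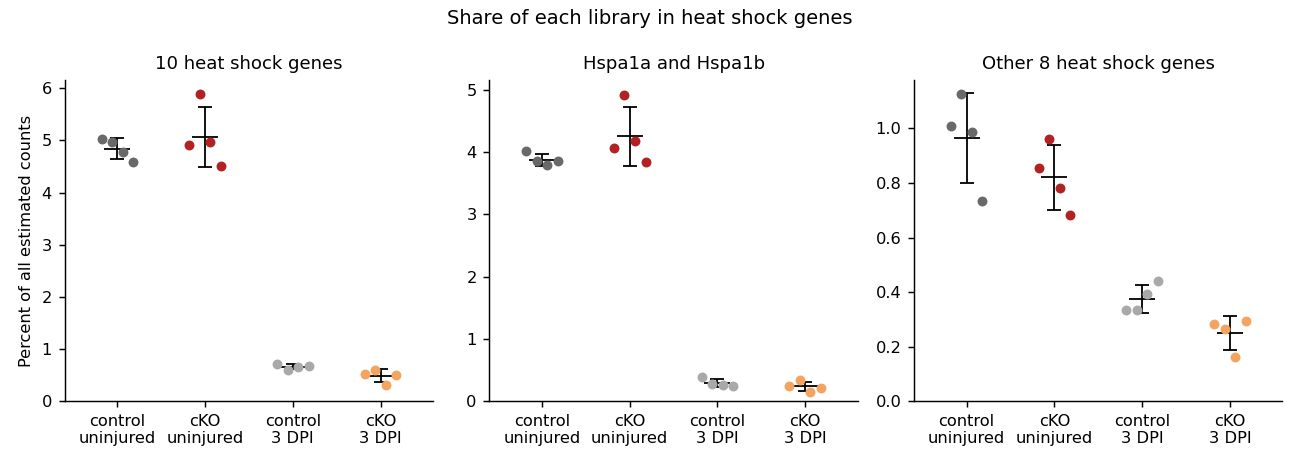
Percent of all estimated counts of a library in the 10 heat shock genes (left), in Hspa1a and Hspa1b (middle) and in the other 8 genes (right), by group. Points are libraries, and black marks are the mean ± SD of 4 libraries. The injury states are separated in each panel, from a mean of 4.84% to 0.668% in control libraries for the 10 genes.

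Between injury states of control MuSCs, the inducible Hsph1, Hspa1a, Hspb1, Hspa1b and Dnajb1 were 9.29- to 21.1-fold lower at 3 DPI. The stress-inducible Hsp90aa1 was 4.5-fold lower and Bag3 4.3-fold lower. The constitutive Hspa8 and Hsp90ab1 were 1.58- and 1.70-fold lower, and Hspd1 was at the same level. Of the 10 genes, 9 were called lower and 0 higher, beside 9.46% of all 15356 genes tested called lower and 10.8% called higher. The median log2 fold change was -2.69 over the 10 genes and 0.07 over all genes. Hspa1a was at 23358, 21226, 18860 and 23752 CPM in uninjured control libraries and at 1898, 1485, 1537 and 1308 CPM at 3 DPI, a log2 fold change of -3.77 ± 0.20. Hspa1b went from 25036, 23422, 21166 and 26242 CPM to 1836, 1327, 1310 and 1265 CPM (-4.02 ± 0.21). For both, the lowest uninjured library was over 9 times the highest 3 DPI library, and the summed pair had a log2 fold change of -3.90 ± 0.21. Hspa8, the constitutive HSP70, was at 2887, 3070, 2242 and 2140 CPM and then at 1262, 1390, 1784 and 1926 CPM. The ranges of Hspa8 were separate in CPM, with a log2 fold change of -0.66 ± 0.19 (edgeR adjusted p = 0.0072). As percent of all counts they overlapped, with 0.165 to 0.265% in uninjured and 0.132 to 0.180% in 3 DPI control libraries. The call of Hspa8 was kept in 8 of 19 alternatives. It was lost with limma (adjusted p = 0.039), with the rescaled table (edgeR adjusted p = 0.029), and without control uninjured replicate 1 or 2 or 3 DPI replicate 1 or 2 (edgeR adjusted p = 0.036, 0.048, 0.034 and 0.043).

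Dnajb1, Hsph1 and Bag3, partners of HSP70, were also lower at 3 DPI. Dnajb1, the J-domain protein of the inducible system, was at 1816, 1759, 1904 and 1532 CPM in uninjured control libraries and at 114, 55.4, 84.6 and 73.2 CPM at 3 DPI. Its log2 fold change was -4.40 ± 0.23, or 21.1-fold, with a 95% interval that overlapped that of Hspa1b. Hsph1, an HSP110 that acts as a nucleotide exchange factor of HSP70, was at 943 to 1398 CPM and then at 109 to 127 CPM (-3.22 ± 0.20). Bag3, a co-chaperone that links HSP70 to small heat shock proteins and to selective autophagy, was at 381 to 681 CPM and then at 105 to 151 CPM (-2.09 ± 0.21). Groups did not overlap for any of the 3 genes, beside 12.3% of all genes that were lower without overlap.

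The HSP90 genes differed from each other. Hsp90aa1, the stress-inducible cytosolic HSP90, was at 1820, 2453, 1890 and 1424 CPM in uninjured control libraries and at 371, 316, 470.1 and 481 CPM at 3 DPI (-2.17 ± 0.20). Hsp90ab1, the constitutive form, was at 2531, 2650, 1796 and 2076 CPM and then at 1024, 1140, 1370 and 1640 CPM (-0.76 ± 0.19). Hspb1, also known as HSP27 and a small heat shock protein, was at 872, 915, 958 and 806 CPM and then at 63.3, 76.8, 41.3 and 54.3 CPM (-3.88 ± 0.22). The only gene not called was Hspd1, with 246, 251, 167 and 177 CPM in uninjured control libraries and 149.8, 212, 213 and 278 CPM at 3 DPI. Its groups overlapped, with a log2 fold change of 0.07 ± 0.20 and a 95% interval from -0.33 to 0.46.

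**Figure D2:**
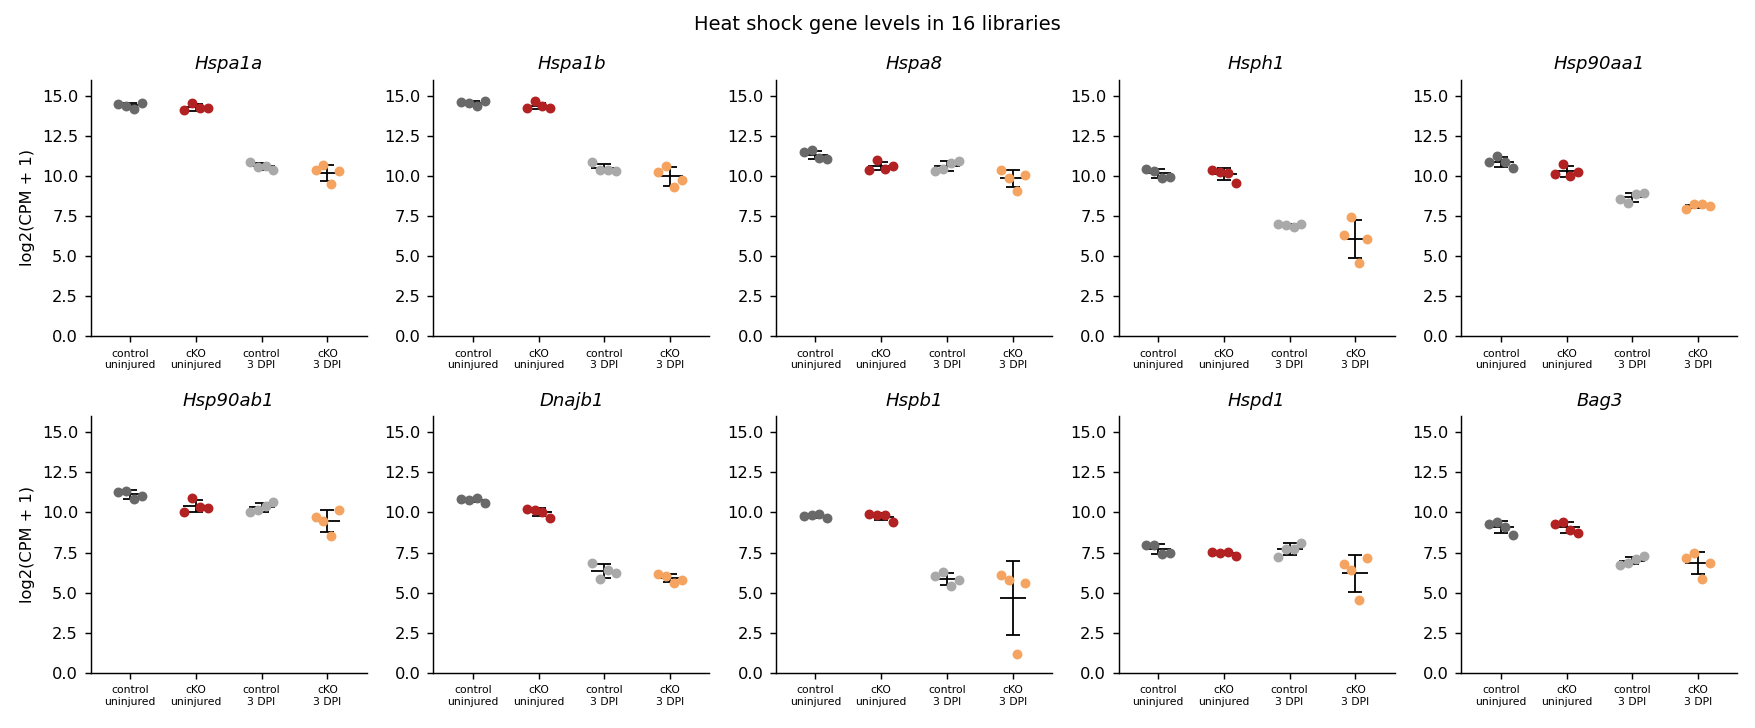
Level of each heat shock gene in 16 libraries as log2(CPM + 1), 1 panel per gene, by group. Points are libraries, and black marks are the mean ± SD of 4 libraries on the same scale. Hspa1a, Hspa1b, Hsph1, Dnajb1 and Hspb1 sit far lower at 3 DPI in both genotypes, whereas Hspd1 in control MuSCs sits at the same level in both injury states.

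The labels give each library a code whose meaning they do not state, and 1 uninjured and 2 of the 3 DPI control libraries share a code. Within them the log2 fold changes are given as values, because the uninjured arm has a single library. Hspa1a was at -4.08, Hspa1b at -4.37, Dnajb1 at -4.30, Hspb1 at -4.09 and Hsph1 at -3.08. Bag3 was at -1.41, Hsp90aa1 at -1.60, Hsp90ab1 at -0.48, Hspa8 at -0.23 and Hspd1 at 0.45.

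In libraries labelled TRF2 MuSC-cKO, Hspa1a, Hspa1b, Hsph1, Dnajb1 and Hspb1 were 13.9- to 21.4-fold lower at 3 DPI than in uninjured muscle. Called lower were 7 of the 10 genes and higher 0, beside 1.61% lower and 2.43% higher of all 14578 genes tested. Hspa1a was at 17499, 24336, 19043 and 18905 CPM in uninjured libraries and at 1316, 1598, 703 and 1257 CPM at 3 DPI (-4.10 ± 0.28). Hspa1b had a log2 fold change of -4.40 ± 0.30 and Dnajb1, from 802 to 1213 CPM down to 48.3 to 71.3 CPM, one of -4.21 ± 0.26. Hspb1 was at 941, 905, 929 and 691 CPM and then at 67.8, 53.0, 1.24 and 47.8 CPM (-4.42 ± 0.58). The value of 1.24 CPM is a single count in replicate 3, the library with the fewest genes detected, and the log2 fold change of Hspb1 stayed between -4.73 and -3.98 when any 1 library was left out. The call of Hspb1 was lost with the rescaled table (edgeR adjusted p = 0.031). Hsph1 (-3.79 ± 0.47), Bag3 (-2.23 ± 0.32) and Hsp90aa1 (-2.21 ± 0.24) were also called. Not called were Hspa8 (-0.78 ± 0.26, edgeR adjusted p = 0.12), Hsp90ab1 (-0.92 ± 0.30, edgeR adjusted p = 0.11) and Hspd1 (-1.04 ± 0.40, edgeR adjusted p = 0.18). Within the libraries of 1 code, 1 uninjured and 2 at 3 DPI including replicate 3, the log2 fold changes were -4.40 for Hspa1a, -4.85 for Hspa1b, -4.09 for Dnajb1, -4.92 for Hspb1, -4.22 for Hsph1, -2.19 for Hsp90aa1, -2.41 for Bag3, -1.08 for Hspa8, -0.89 for Hsp90ab1 and -1.05 for Hspd1, given as values because 1 arm has a single library.

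**Figure D3:**
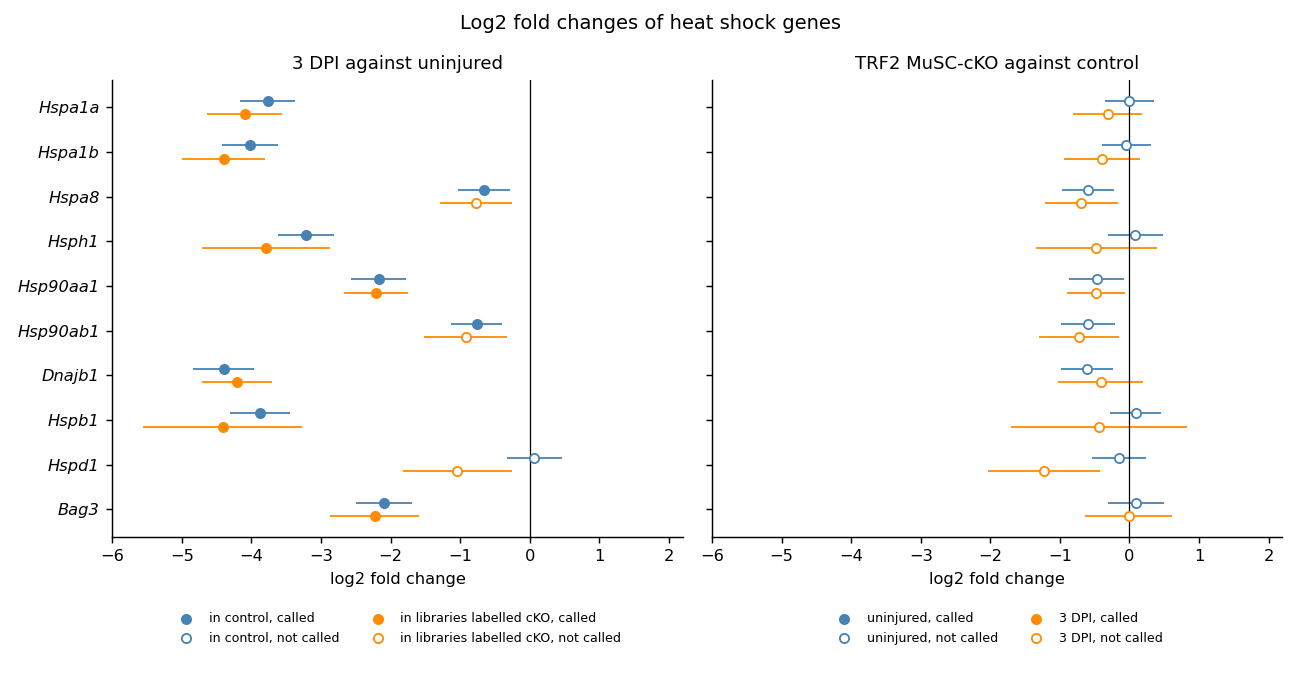
Log2 fold changes of the 10 heat shock genes between injury states in each genotype (left) and between genotypes in each injury state (right). Points are edgeR estimates, filled where called, and lines are 95% intervals. Changes with injury reach -4.40 in control MuSCs, and no point on the right is filled.

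Whether injury changed these genes by a different amount in the genotypes was tested as an interaction over all 16 libraries, and none of the 10 genes was called. The background was 0.0178% of 16822 genes called lower and 0% called higher. By edgeR, 1 of the 10 genes had an unadjusted p under 0.05, as by DESeq2, and 2 by limma, with 0 called by either, and 5.74% of all genes had such a p by edgeR. That gene was Hspd1, with a difference of -0.99 ± 0.46 on the log2 scale (edgeR adjusted p = 0.84). Intervals remained wide for the inducible genes: from -0.84 to 0.39 for Hspa1a, from -0.34 to 0.92 for Dnajb1 and from -1.58 to 0.73 for Hspb1.

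In uninjured MuSCs, the inducible HSP70 pair was at a like level in the genotypes, while Hspa8, Hsp90ab1 and Dnajb1 had log2 fold changes of -0.60, -0.60 and -0.61 in TRF2 MuSC-cKO. None of the 10 genes was called, beside 2.63% of all 14048 genes called lower and 0.584% called higher. By edgeR and by limma, 4 of the 10 had an unadjusted p under 0.05 and 0 were called, beside 19.5% of all genes with such a p by edgeR. DESeq2 called 3 lower, which were Hspa8, Hsp90ab1 and Dnajb1, beside 3.62% of all genes called lower by DESeq2. The log2 fold change was -0.003 ± 0.181 for Hspa1a and -0.04 ± 0.18 for Hspa1b, and 95% intervals ran from -0.36 to 0.35 and from -0.40 to 0.31. Other scalings gave the pair values on either side of 0. With library size alone, which moved the median of all genes from 0.06 to 0.24, Hspa1a was at 0.18, and relative to that median it was at -0.06 under either scaling. Hsph1 (0.09 ± 0.20), Hspb1 (0.09 ± 0.19), Bag3 (0.10 ± 0.20) and Hspd1 (-0.15 ± 0.20) were also near 0. Outside the 10, the summed level of 16 other genes known to be induced by HSF1 did not overlap between the genotypes. It was 3617 to 4109 CPM in control and 2319 to 2666 CPM in TRF2 MuSC-cKO libraries, with 12 of the genes below 0 and 4 above.

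The constitutive HSP70 Hspa8 was at 2887, 3070, 2242 and 2140 CPM in control and at 1342, 1986, 1397 and 1546 CPM in TRF2 MuSC-cKO libraries, with a log2 fold change of -0.60 ± 0.19 (edgeR adjusted p = 0.058). Dnajb1 was at 1816, 1759, 1904 and 1532 CPM and at 1213, 1150, 1039 and 802 CPM (-0.61 ± 0.19, edgeR adjusted p = 0.049). With all 16 libraries in 1 fit, which has the scaling of these CPM, log2 fold changes were -0.72 for Hspa8 and -0.74 for Dnajb1, not called. For both, no library of one genotype reached the range of the other in CPM, as for 9.18% of all genes, but as percent of all counts the ranges overlapped, with 0.165 to 0.265% in control and 0.147 to 0.196% in TRF2 MuSC-cKO for Hspa8, and 0.118 to 0.180% and 0.0802 to 0.133% for Dnajb1. Hsp90ab1 was at 2531, 2650, 1796 and 2076 CPM and at 1033, 1924, 1275 and 1267 CPM (-0.60 ± 0.20, edgeR adjusted p = 0.069). Its groups overlapped through TRF2 MuSC-cKO replicate 2, and without that library Hsp90ab1 was called lower (-0.81, edgeR adjusted p = 0.017). Hsp90aa1 was at 1424 to 2453 CPM and at 1008 to 1721 CPM (-0.47 ± 0.20, edgeR adjusted p = 0.18). The summed level of immediate early genes, which respond within minutes to many stimuli, was 29141 to 40687 CPM in control and 21217 to 30467 CPM in TRF2 MuSC-cKO libraries. The summed MuSC markers given above were also lower in TRF2 MuSC-cKO without overlap, and the summed level of 4 Schwann cell markers was 229 to 299 CPM in control and 328 to 449.8 CPM in TRF2 MuSC-cKO libraries. Their part was not tested. No 2 uninjured libraries from different genotypes share a code, so code and genotype cannot be told apart there.

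At 3 DPI, all 10 genes were below 0 in libraries labelled TRF2 MuSC-cKO against control, except for Bag3 and Hsph1 under some alternatives. Bag3 was at 0.09 when scaled by library size alone, at 0.037 with limma and at 0.01 with at least 10 counts in every library, reached 0.20 with 1 library left out, and was above 0 with Hsph1 within 1 code. None was called, in a comparison where 0% of 14559 genes were called lower and 0% higher by edgeR. Of the 10, 4 had an unadjusted p under 0.05 by edgeR and by DESeq2 and 5 by limma, with 0 called by any of the 3 tools, beside 9.36% of all genes with such a p by edgeR. The median was -0.46 over the 10 genes and 0.001 over all genes. Hspd1 was at 149.8, 212, 213 and 278 CPM in control libraries and at 109, 84.2, 22.3 and 139.8 CPM in libraries labelled TRF2 MuSC-cKO. In CPM, groups of Hspd1 and Hsp90aa1 did not overlap, beside 4.87% of all genes that were lower without overlap, and as percent of all counts those of Hsp90aa1 overlapped. The log2 fold change of Hspd1 was -1.23 ± 0.41 (edgeR adjusted p = 0.45). Without replicate 3, where Hspd1 was lowest, it was -0.93. Hspa8 (-0.69 ± 0.27), Hsp90ab1 (-0.72 ± 0.29) and Hsp90aa1 (-0.48 ± 0.21) followed with edgeR adjusted p between 0.50 and 0.52. Within the code shared by 2 libraries of each genotype, values were -0.90 for Hspd1, -0.24 for Hspa8, -0.47 for Hsp90ab1 and -0.32 for Hsp90aa1, and above 0 for Hsph1 (0.02) and Bag3 (0.54). The inducible pair was at -0.31 ± 0.25 (Hspa1a) and -0.40 ± 0.28 (Hspa1b), and Bag3 was at -0.01 ± 0.32.

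Levels of different genes were compared per transcript length, from the authors' rescaled table, as length-scaled CPM without TMM. In uninjured control MuSCs, Hspa1b (19267 ± 489) and Hspa1a (17594 ± 768) stood apart from all others, and the order within this pair depends on how reads of the near-identical copies were split. Hspa8 (2822 ± 541), Hspb1 (2414 ± 343), Hsp90ab1 (2051 ± 348), Hsp90aa1 (1519 ± 392) and Dnajb1 (1329 ± 207) followed, and each overlapped its neighbour. Hsph1 (744 ± 145), Bag3 (496 ± 130) and Hspd1 (206 ± 43) were lowest. Uninjured TRF2 MuSC-cKO libraries had the same order except that Hspb1 (2922 ± 499) preceded Hspa8 (2128 ± 321), with overlapping ranges. At 3 DPI the order changed. In control libraries Hspa8 (1759 ± 238) came first, and it overlapped Hspa1a (1307 ± 321), which overlapped Hspa1b (1202 ± 336) and that Hsp90ab1 (1192 ± 176). Hsp90aa1 (332 ± 53) and Hspd1 (211 ± 38) were next, and Dnajb1 (64.3 ± 24.4), which overlapped Hsph1, was last of the 10. The level of Hspd1 thus took place 10 in uninjured and place 6 in 3 DPI control libraries. At 3 DPI its range overlapped those of Hsp90aa1 and Hspb1, so the exact place is uncertain. In 3 DPI libraries labelled TRF2 MuSC-cKO, Hspd1 was at place 8, also with overlap.

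Ratios within a library do not depend on how libraries are scaled. Counts of Hspa1a and Hspa1b together were 14.5 to 23.4 times those of Hspa8 in uninjured control and 24.8 to 28.5 times in uninjured TRF2 MuSC-cKO libraries, without overlap. At 3 DPI the ratio was 1.34 to 2.96 in control and 1.90 to 3.46 in libraries labelled TRF2 MuSC-cKO, which overlapped. Dnajb1 was at 0.573 to 0.850 of Hspa8 in uninjured control, at 0.519 to 0.904 in uninjured TRF2 MuSC-cKO, and at 0.038 to 0.091 in 3 DPI control libraries. The HSP90 pair shifted as well. Hsp90aa1 was at 0.846 ± 0.174 of the counts of Hsp90ab1 in uninjured control and at 0.319 ± 0.040 in 3 DPI control libraries. In 3 DPI libraries labelled TRF2 MuSC-cKO this ratio was 0.295, 0.414, 0.818 and 0.253, the high value being replicate 3.

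**Figure D4:**
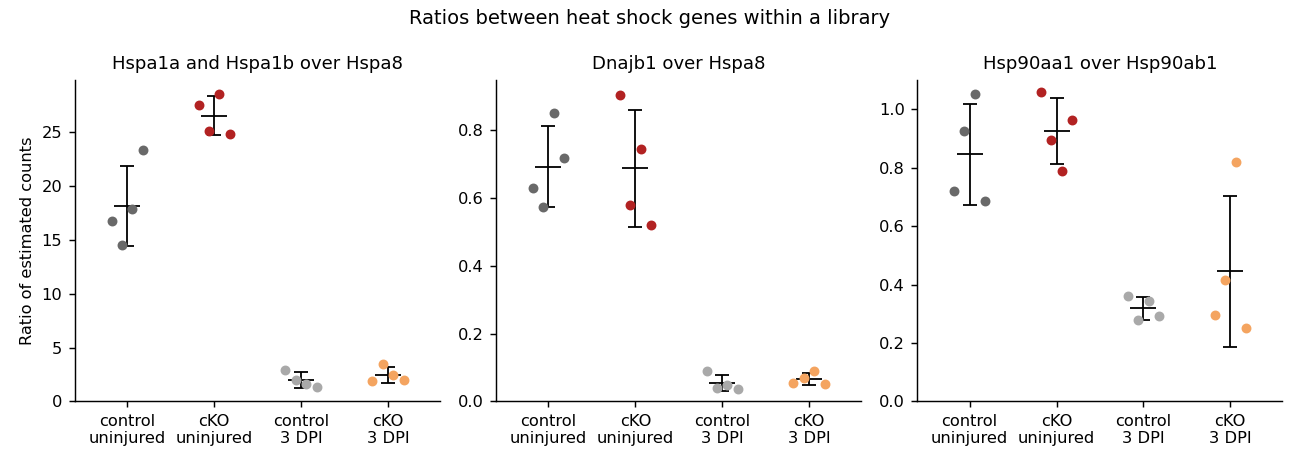
Ratios of estimated counts between heat shock genes within each library, by group. Points are libraries, and black marks are the mean ± SD of 4 libraries. The inducible HSP70 pair exceeds Hspa8 by 14.5 to 28.5 times in uninjured libraries and by 1.34 to 3.46 times at 3 DPI.

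Across the 16 libraries likeness between the 10 genes is described without a test, because the libraries form 2 separate clusters by injury state. In log2 CPM, Hspa1a and Hspa1b had r = 0.999, Hspa1a and Dnajb1 0.987, and Hsph1 and Bag3 0.980. Hspa8 and Hsp90ab1 had r = 0.972, but only 0.671 and 0.695 with Hspa1a. The lowest value was 0.435, between Dnajb1 and Hspd1. After the mean of each group was taken off, r was 0.905 between Hspa8 and Hsp90ab1, 0.870 between Hsp90ab1 and Hspd1 and 0.924 between Hspa1a and Hspa1b, and 0.453 between Hspa1a and Dnajb1. Among 12205 other genes, those whose levels were most like the mean of the 10 were Zbtb20 (r = 0.987 over 16 libraries), Mga (0.981), Spry1 (0.975), Lrig1 (0.970), Rev3l (0.968), Egfr (0.968), Cdon (0.967) and Egr1 (0.966). Of the 100 most alike, 8 were among the 25 immediate early genes compared and 2 among the 96 other chaperone and HSF genes compared, 1 of them Hspa1l. Like values share the library and its depth.

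Genes of the wider chaperone network were taken from lists written with earlier results of these data known. In control MuSCs, 9 distinct genes (8.91% of those tested) were called lower and 15 higher, beside 9.46 and 10.8% of all genes, and in libraries labelled TRF2 MuSC-cKO 2 of 99 lower and 4 higher, beside 1.61 and 2.43%. Of 16 other genes known to be induced by HSF1, 4 were called lower in control MuSCs at 3 DPI, among them the small heat shock gene Cryab (-1.94 ± 0.25), Dnajb4 (-1.37 ± 0.25) and Dnaja1 (-0.75 ± 0.20). Stip1, which joins HSP70 to HSP90, was called higher (0.68 ± 0.21), and the median of the list was -0.15, with 9 genes below 0 and 7 above. The summed level of these 16 genes was 3617 to 4109 CPM in uninjured and 2105 to 2590 CPM in 3 DPI control libraries. Hsf1 itself was at 56.8 ± 14.1 CPM in uninjured and 28.0 ± 8.6 CPM in 3 DPI control libraries (-0.96 ± 0.30, edgeR adjusted p = 0.013). The other 2 regulators of its list that were tested were above 0 and not called, and the summed level of the list was 112 ± 33 and 112 ± 14 CPM. In the endoplasmic reticulum, where folding is under another stress pathway, 13 of 17 chaperone genes were called higher and 1 (Dnajc1, -0.82 ± 0.21) lower, with a median of 1.15. They included Sdf2l1 (3.17 ± 0.41), the lectin chaperone Calr (2.18 ± 0.21), the disulfide isomerases Pdia6 (1.85 ± 0.23) and Pdia3 (1.82 ± 0.21), Hsp90b1 and Hspa5. In libraries labelled TRF2 MuSC-cKO, 4 of the 17 were called higher, which were Calr (2.13 ± 0.27), Pdia3, Pdia4 and Hsp90b1. Of 10 mitochondrial chaperones and proteases, 0 were called in control MuSCs by edgeR, with a median of -0.02. Of 8 other HSP70 and HSP110 genes, Hspa12a (-1.51 ± 0.21) and Hspa1l (-1.51 ± 0.25) were called lower, and the sequence of Hspa1l resembles Hspa1a, so reads may be shared.

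Of 25 immediate early genes, 13 were called lower and 4 higher in control MuSCs at 3 DPI, with a median of -0.83, beside 9.46 and 10.8% of all genes. In libraries labelled TRF2 MuSC-cKO, 9 were called lower and 0 higher, beside 1.61 and 2.43% of all genes. In control MuSCs, Egr1 had a log2 fold change of -3.91 ± 0.22, Btg2 -2.85 ± 0.21 and Ier2 -2.56 ± 0.21, while Ier5 was called higher (2.66 ± 0.24). Their summed level was 34754 ± 4740 CPM in uninjured control, 25483 ± 4337 CPM in uninjured TRF2 MuSC-cKO, 8010 ± 1024 CPM in 3 DPI control and 6263 ± 994 CPM in 3 DPI libraries labelled TRF2 MuSC-cKO. The part of immediate early activation in the heat shock gene levels was not tested.

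Between genotypes in uninjured MuSCs, the wider network had 6 of 98 distinct genes called lower (6.12%) and 0 higher, beside the 2.63 and 0.584% of all genes. The TRiC chaperonin, which folds actin and tubulin, had all 8 subunits below 0 with a median of -0.77, and Cct5 (-1.06 ± 0.24) and Cct2 (-0.87 ± 0.22) were called. Among HSP90 and HSP70 co-chaperones, Cdc37, which brings kinases to HSP90 (-0.94 ± 0.22), and Fkbp8 (-0.91 ± 0.24) were called. Cryab (-1.25 ± 0.25) and the collagen chaperone Serpinh1 (-0.87 ± 0.21) were the others. At 3 DPI, 0 genes of these lists were called by edgeR, as for all genes, and the TRiC median was -0.90.

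**Figure D5:**
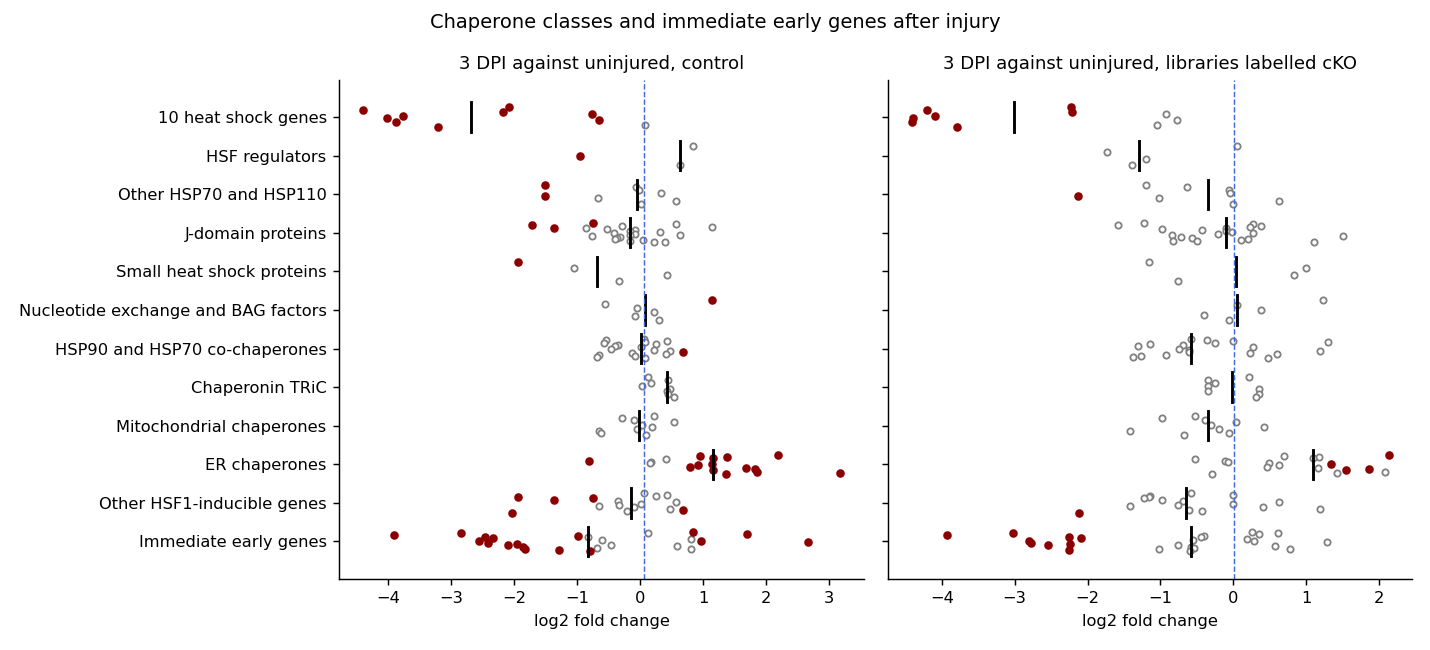
Log2 fold change of each tested gene between 3 DPI and uninjured libraries, by chaperone class and for immediate early genes, in control (left) and in libraries labelled TRF2 MuSC-cKO (right). Each point is a gene, filled red where called. Black bars are list medians, and the dashed line is the median of all genes. The 10 heat shock genes have medians of -2.69 and -3.01, while endoplasmic reticulum chaperones have medians of 1.15 and 1.09.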

How the data were processed

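Strand-specific CORALL libraries were made from RNA after removal of ribosomal RNA. Reads were trimmed with Trim Galore 0.6.7, aligned to Ensembl GRCm38 with STAR 2.6.1d (the version in the submitters' processing notes) and quantified with Salmon 1.5.2. The kit adds molecular identifiers, and whether they were used to collapse duplicates is not given in the sources used here. The authors deposited estimated counts per gene, not normalized, and a second table of estimated counts rescaled by transcript length to each library's total, used for levels per length and as an alternative.

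The members and lists were chosen with earlier results of these data known. Estimated counts were rounded. In each comparison, 8 libraries (16 for the interaction) were filtered with filterByExpr, scaled by TMM and tested with edgeR 4.0.16 (R 4.3.3), robust quasi-likelihood test, with Benjamini-Hochberg adjustment over all genes tested. Calls needed a fold change over 1.5 and an adjusted p-value under 0.02, the study's threshold. Named are all 10 members, Terf2, called genes of each list (at most 4 per list and comparison, by size of change) with Hspa5, Dnajc1 and Hspe1 added after their values were seen, and the 8 genes most like the members' mean log2 CPM (prior count 2, mean of at least 4). Alternatives were limma 3.58.1, DESeq2 1.42.0, other scalings, filters and tables, the replicate block, libraries of 1 code, and each library left out. The result of 1 gene of the lists is not reported here. Of the 24411 genes, 23376 matched GENCODE M21. Library totals of 620506 to 1351130 limit low genes. In simulated counts 200 genes were changed, drawn only from genes above a set mean count, so the rates do not cover the lowest genes. Genes changed by 1 on the log2 scale were recovered at 43.9% and those changed by 2 at 95.5% (genotypes, uninjured), 0.0 and 33.3% (genotypes, 3 DPI), 40.9 and 97.0% (injury, control), and 1.5 and 40.3% (injury, TRF2 MuSC-cKO), among 13372, 13580, 14696 and 13377 genes.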

Additional observations from a re-analysis of the deposited data

Results flagged for a closer look

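Each of the 10 genes and their summed share was examined in each group of 4 libraries for a library far from the other 3, and 3 of 44 such groups held one. Chance alone gives about 1 in 20. Hspa1b was at 1836 CPM in 3 DPI control replicate 1 and at 1265 to 1327 CPM in the other 3 libraries. Hspb1 was at 691 CPM (690.5) in uninjured TRF2 MuSC-cKO replicate 4 against 905 to 941 CPM. Hspd1 was at 153.9 CPM in the same library against 179.7 to 182.3 CPM, and this library carries another code than the rest of its group.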

How the results depend on the processing

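The number of genes called lower stayed within 1.5 times in both injury comparisons, at 7 to 9 in control and 5 to 8 in libraries labelled TRF2 MuSC-cKO, the 5 being within 1 code (without Hsp90aa1 and Bag3), where a lone uninjured library is assumed to vary like the others. Between genotypes in uninjured MuSCs it was 0, and 3 with DESeq2 and 3 with the replicate block, with 0 to 1 when any 1 library was left out. Same-numbered replicates correlated at -0.110 to 0.111, so the numbers were not taken to pair libraries, and the block changed no other count by over 1.5 times. The cause of these differences was not tested. The share of counts in the 10 genes moved by less than 1 SD with the rescaled table (4.84, 5.23, 0.642 and 0.487% in the order of groups above) and with each library left out.

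With injury in control, Hspa8 lost its call with limma (adjusted p = 0.039), the replicate block (edgeR adjusted p = 0.025), the rescaled table (0.029) and all 16 libraries in 1 fit (0.059), and, at a fold under 1.5, with library size alone (-0.51) and at least 10 counts (-0.55).

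Log2 fold changes that changed sign were all of genes not called. Between genotypes in uninjured MuSCs these were, with library size alone, Hspa1a (0.18), Hspa1b (0.14) and Hspd1 (0.04), with at least 10 counts in every library, Hspa1a (0.073) and Hspa1b (0.033), and with all 16 libraries in 1 fit, Hsph1 (-0.044), Hspb1 (-0.035) and Bag3 (-0.025). At 3 DPI these were Bag3 with limma (0.037), library size alone (0.089), at least 10 counts (0.01) and within 1 code (0.54), and Hsph1 within 1 code (0.021). Between injury states in control it was Hspd1 with the rescaled table (-0.018). In the interaction these were Hspa8 (0.055), Hsp90ab1 (0.062) and Bag3 (0.056) with limma, and Hsp90aa1 with library size alone (-0.055) and with no filter (-0.075). With 1 library left out, ranges that crossed 0 were -0.12 to 0.033 for Hspa1a, -0.042 to 0.22 for Hsph1 and -0.088 to 0.19 for Bag3 between genotypes in uninjured MuSCs, -0.26 to 0.20 for Bag3 at 3 DPI, -0.092 to 0.20 for Hspd1 with injury in control, and -0.20 to 0.13 for Hspa8, -0.16 to 0.25 for Hsp90aa1, -0.28 to 0.16 for Hsp90ab1 and -0.38 to 0.13 for Bag3 in the interaction.

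With library size alone, the share of lower among all calls fell from 81.9 to 54.6% between genotypes in uninjured MuSCs and from 46.8 to 34.9% with injury in control. Counts over all genes also moved by over 1.5 times: in uninjured MuSCs, 370 genes were called lower and 82 higher, and 70 and 12 with all 16 libraries in 1 fit, and with injury in libraries labelled TRF2 MuSC-cKO 235 and 354, and 618 and 633 with limma. Among the 10 genes there, the call of Hspb1 was lost with the rescaled table (edgeR adjusted p = 0.031) and Hspd1 was called lower with limma (adjusted p = 0.018). Depth limits the low genes: in 3 DPI libraries labelled TRF2 MuSC-cKO, Hspb1, Dnajb1 and Hsph1 had 1 to 149 estimated counts and Hspd1 18 to 120.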
